A study of Mus musculus with 12 samples.

Results

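Notch target and mediator genes were described here as 10 genes picked by symbol, of 31053 genes listed for the embryonic livers and 22597 listed for the neonatal livers. The members are Hes1, Hey1, Hey2, Heyl, Nrarp, Rbpj, Dtx4, Lfng, Mfng and Rfng, and all 10 stood in both gene lists. The study profiled dissociated mouse livers by droplet-based single-cell RNA sequencing, in which each transcript molecule is counted by a unique molecular identifier (UMI). Livers were taken before birth, on day E16.5 of gestation, and after birth, on day P3, from litters of Jag1Ndr/+ parents, and carried a Jag1+/+, Jag1Ndr/+ or Jag1Ndr/Ndr genotype. Ndr is the Nodder missense allele of the Notch ligand Jag1, present in every cell of the animal. Per the labels' protocols, Jag1Ndr/Ndr pups at P3 were recognised by jaundice, TrypLE was added to the digestion only at E16.5, and dead cells were removed before loading.

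The labels gave 2 animals per genotype and stage, hence 12 matrices, but the matrices held fewer separate libraries. In the embryonic set, Jag1+/+ replicate 2 and Jag1Ndr/+ replicate 2 hold the same 23166 barcodes with the same values, and they were counted once, as the shared library. At P3, 5 pairs of matrices with different genotype labels had between 62.1% and 100% of the smaller matrix's barcodes in common, and the 2 Jag1Ndr/Ndr matrices had 53.4% in common. Library A (labelled Jag1+/+ replicate 1) and library B (labelled Jag1+/+ replicate 2) therefore have no certain genotype. Library C was the matrix labelled Jag1Ndr/Ndr replicate 1 without library A's barcodes, and library D was Jag1Ndr/+ replicate 1. The embryonic set thus comprised 5 libraries and the neonatal set 4. The kept cells numbered 15991 to 25102 per library at E16.5 and 13923 to 19295 at P3, and a library held 154724088 to 258642858 UMIs over all its barcodes at E16.5 and 75745209 to 199943954 at P3. The median depth per barcode was 5325 to 9256 and 2961 to 6235 UMIs. The cells fell into 14 classes, named "X-like" from marker genes. Bile duct epithelium, where Jag1 and Notch are best known in this organ, was not analysed here, as its markers named none of the clusters.

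In Notch signalling, a ligand such as Jag1 or Dll4 on 1 cell binds a Notch receptor on its neighbour, and the receptor is then cleaved to free its intracellular domain. That domain enters the nucleus and joins the DNA-binding protein RBPJ and a Mastermind coactivator to switch on target genes. Hes1, Hey1, Hey2 and Heyl are such targets and encode repressors of the HES and HEY families. Nrarp is a target whose protein restrains the complex that induced it. Lfng, Mfng and Rfng encode Fringe glycosyltransferases that add a sugar to Notch receptors and so alter which ligands activate them, and Dtx4 encodes an E3 ubiquitin ligase of the Deltex family that acts on Notch. In liver the pathway is known for bile duct formation and for arterial and sinusoidal endothelium, and in blood cells for lineage choice among lymphocytes.

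All members are protein-coding genes placed by the GENCODE annotation on GRCm38 (mm10). Hes1 lies at chr16:30064384-30067796 on the plus strand, Hey1 at chr3:8663359-8667256 on the minus strand, Hey2 at chr10:30832359-30842801 on the minus strand and Heyl at chr4:123233556-123249875 on the plus strand. Nrarp lies at chr2:25180758-25183339, Rbpj at chr5:53466152-53657362 and Lfng at chr5:140607320-140615545, all on the plus strand. Dtx4 lies at chr19:12466338-12501454, Mfng at chr15:78755882-78773475 and Rfng at chr11:120780746-120784207, all on the minus strand.

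RBPJ is known to bind DNA at a core of the letters TGGGAA, and HES and HEY proteins at boxes such as CACGTG. The RefSeq promoter table (GRCm38.p6, 250 bases before to 50 after a start site) held 5 of the 10 members with 6 start sites. Hes1, Hey1, Heyl, Dtx4 and Mfng had no entry. Both strands were searched, and the sites below are shown because they are the places in the members' promoters where these letters occur. Capitals mark TGGGAA, or TTCCCA where the core lies on the other strand, and in the Nrarp entry CACGTG. Positions are counted from the RefSeq start site, and each sequence is written along the gene's own strand.
Lfng, chr5:140607221-140607250, plus strand, bases -108 to -103: ccgtatcccacgTGGGAAggagagatctcc
Lfng, chr5:140607194-140607223, plus strand, bases -135 to -130: ccagctgggtggTTCCCAgccccttgtccg
Hey2, chr10:30842973-30843002, minus strand, bases -207 to -202: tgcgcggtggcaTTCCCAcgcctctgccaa
Hey2, chr10:30842769-30842798, minus strand, bases -3 to 2: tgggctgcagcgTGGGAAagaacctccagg
Rbpj, chr5:53590185-53590214, plus strand, bases -149 to -144: aatgaaaaaggcTGGGAAcccgcggcgagc
Rbpj, chr5:53590269-53590298, plus strand, bases -65 to -60: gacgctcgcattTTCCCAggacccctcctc
Nrarp, chr2:25180638-25180667, plus strand, bases -108 to -103: ccgccccgccccCACGTGggcaccacccaa

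The core TGGGAA was in 25.6% of all 32851 promoters of the table, so its presence at Lfng, Hey2 and Rbpj is common among genes. The longer form CGTGGGAA was in 0.734% of the promoters. It occurred once at Lfng, at bases -110 to -103, where it shares letters with a CACGTG at -112 to -107. Hey2 had the longer form at both of its cores. CACGTG was in 7.15% of the promoters, and among the members it was found at Nrarp and Lfng. Nrarp had no TGGGAA in its window, and Rfng had neither TGGGAA nor CACGTG. The looser box CACNAG, with N any letter, was also searched. It was in 42.5% of the promoters, and among the members it occurred at Nrarp, Lfng and Rfng. A match describes letters only.

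Levels are given in counts-per-million (CPM), the UMIs of a gene scaled to the UMIs summed over the cells of 1 class in 1 library, with the SD over libraries. The classes were clustered without the members or their pathway, and the levels by class are a description with no test. Hes1 was highest in the B-like class at E16.5, with 59.5 CPM in Jag1+/+ replicate 1, 52.5 in the shared library, 47.0 in Jag1Ndr/+ replicate 1, 59.8 in Jag1Ndr/Ndr replicate 1 and 63.1 in Jag1Ndr/Ndr replicate 2. Its mean there was 56.4 ± 6.52 CPM (SD, n = 5), against 36.1 ± 11.1 CPM in the endothelial-like class. B-like stood above endothelial-like in 5 of 5 libraries, although the ranges touched. Mesenchymal-like (26.8 ± 10.7 CPM), macrophage-like (23.4 ± 5.64 CPM) and hepatocyte-like cells (16.2 ± 6.38 CPM) followed, each overlapping its neighbour in the order. The monocyte-like, neutrophil-like and erythroid-like classes were at 2 CPM or less.

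The share of cells with at least 1 Hes1 UMI showed the same contrast within a stage. After each cell was thinned to 1000 UMIs, 5.36% ± 0.738 (SD, n = 5) of B-like cells at E16.5 had a Hes1 UMI, against 0.140% ± 0.0577 (SD, n = 5) of late erythroid-like cells, a class in which Hes1 should be near absent. Unthinned, the shares were 29.5% and 0.923%, at median depths of 7063 and 7455 UMIs. At P3 the thinned shares were 2.21% ± 0.441 (SD, n = 4) in B-like and 0.0464% ± 0.0143 (SD, n = 4) in late erythroid-like cells, and the unthinned shares were 7.89% and 0.187% at median depths of 3057.5 and 3522 UMIs. The B-like share was far above this background at both stages.

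**Figure D1:**
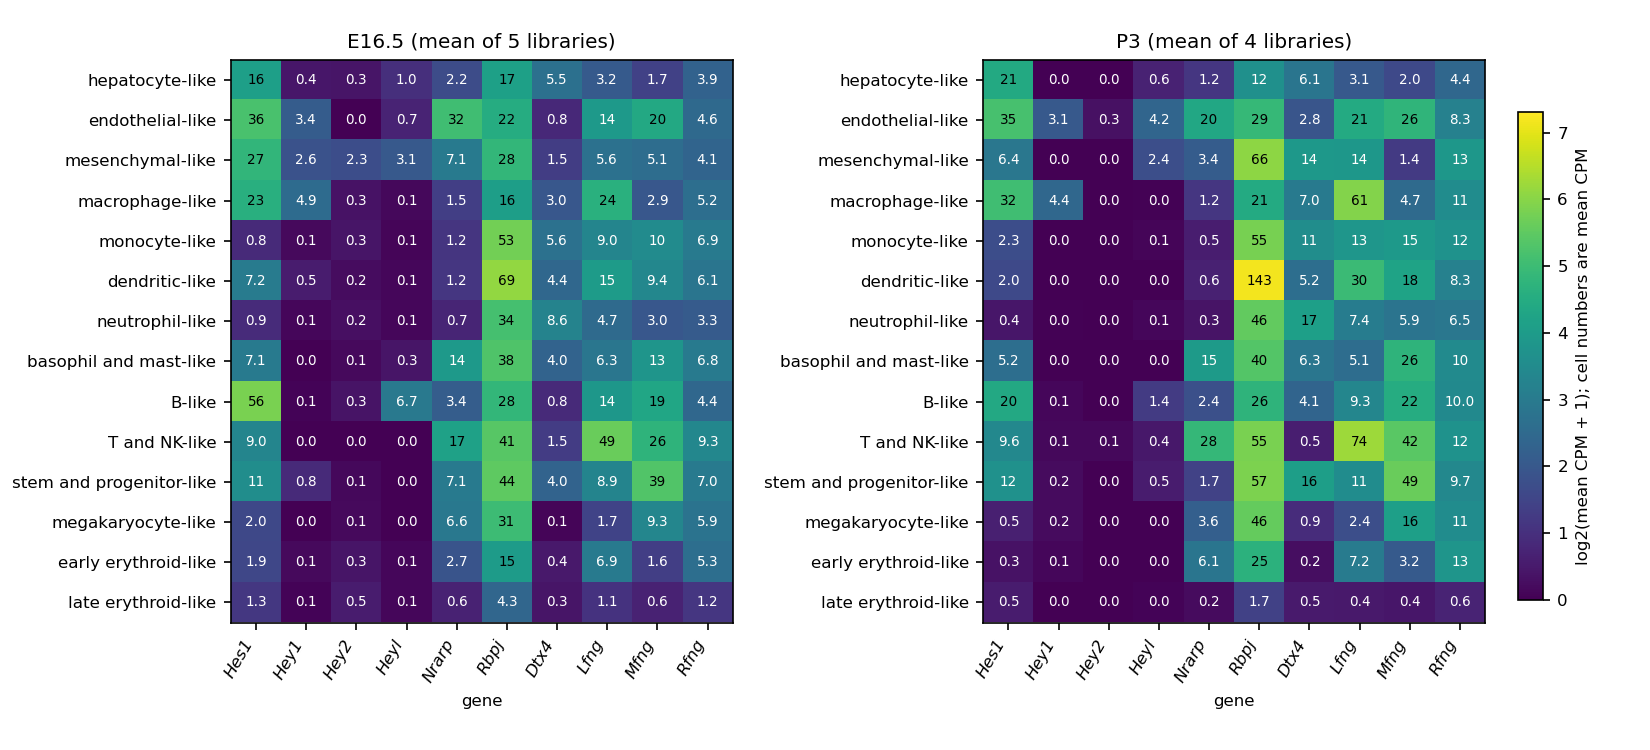
Mean level of the 10 genes in each of 14 cell classes at E16.5 (left, mean of 5 libraries) and P3 (right, mean of 4 libraries). Rows are classes, columns are genes, colour is log2(mean CPM + 1) and the number in each cell is the mean CPM, for example 56.4 against 20.0 (rounded in the plot) for Hes1 in B-like cells and 68.7 against 143 for Rbpj in dendritic-like cells.

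At P3 the order of Hes1 levels changed at the top. The endothelial-like class led with 32.2, 50.3, 24.3 and 34.9 CPM in libraries A to D, a mean of 35.4 ± 10.9 CPM (SD, n = 4). Macrophage-like cells had 32.1 ± 9.41 CPM, hepatocyte-like cells 20.5 ± 15.6 CPM and B-like cells 20.0 ± 4.84 CPM. None of these 4 neighbours differed beyond its spread: endothelial-like stood above macrophage-like in 2 of 4 libraries, and hepatocyte-like above B-like in 1 of 4.

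Within classes, Hes1 was uneven between clusters. In the B-like class at E16.5, the cluster led by Vpreb1 and Igll1, parts of the pre-B-cell receptor, held 4934 cells and had 72.4 CPM of Hes1, against 34.0 CPM in the other cluster of 3535 cells, led by Igkc and Ighm. In the macrophage-like class at E16.5, Hes1 was 50.3 CPM in the cluster of 733 cells with less of the haemoglobin transcript Hba-a1 and 8.87 CPM in the cluster of 4063 cells with more of it. Hba-a1 itself was 18760 and 76020 CPM in these 2 clusters. Hepatocyte-like cells split in the same way, with 22.7 CPM of Hes1 in the cluster of 681 cells with 9502 CPM of Hba-a1 and 4.65 CPM in the cluster of 1583 cells with 77790 CPM. The part of free haemoglobin RNA or of attached erythroid cells in these levels was not tested.

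Hey1 was low in every class. The macrophage-like class led at E16.5 with 6.86 CPM in Jag1+/+ replicate 1, 3.81 in the shared library, 1.96 in Jag1Ndr/+ replicate 1, 5.22 in Jag1Ndr/Ndr replicate 1 and 6.42 in Jag1Ndr/Ndr replicate 2. The endothelial-like class had 3.35 ± 0.803 CPM (SD, n = 5) and the mesenchymal-like class 2.57 ± 1.70 CPM, and the 3 ranges overlapped. At P3 macrophage-like cells had 4.43 ± 1.24 CPM (SD, n = 4) and endothelial-like cells 3.099 ± 2.22 CPM, while hepatocyte-like, dendritic-like, monocyte-like, mesenchymal-like and basophil and mast-like cells had no Hey1 UMI.

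The endothelial-like class was also a mixture, which bears on its levels and stage changes. Its arterial-like, sinusoidal-like and venous-like subclusters held 77, 276 and 112 of 1273 cells at E16.5 and 26, 175 and 44 of 734 cells at P3, where another 40 were lymphatic-like. The other subclusters were led by erythroid, macrophage, basophil, B-cell or neutrophil genes, and at P3 also, in 58 cells, by Cxcl12, Dcn, Reln and Lum. Splitting the class placed Hey1 in arterial-like cells. Pooled over libraries, Hey1 was 42.1 CPM there at E16.5 (95% Poisson interval 26.7 to 63.1, 23 UMIs), against 3.64 CPM in sinusoidal-like cells (1.88 to 6.35, 12 UMIs) and 1.03 CPM in venous-like cells (0.124 to 3.71, 2 UMIs). The arterial-like interval lay apart from both others. At P3 arterial-like Hey1 was 68.1 CPM (29.4 to 134, 8 UMIs) and sinusoidal-like Hey1 2.69 CPM (0.326 to 9.73, 2 UMIs). These intervals cover counting error only.

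Hes1 followed the same order among endothelial-like cells at E16.5, and Nrarp did not. Hes1 was 95.1 CPM (71.0 to 125) in arterial-like, 57.9 CPM (49.9 to 66.7) in sinusoidal-like and 26.2 CPM (19.5 to 34.4) in venous-like cells, with 3 intervals that lay apart. Nrarp was 65.7 CPM (54.8 to 78.1) in venous-like cells, 43.9 CPM (28.1 to 65.3) in arterial-like cells and 40.9 CPM (34.3 to 48.4) in sinusoidal-like cells. The venous-like interval lay above the sinusoidal-like one. The ligand Jag1 was 229 CPM (190 to 272) in arterial-like cells, 7.88 CPM (5.15 to 11.5) in sinusoidal-like cells and 6.67 CPM (3.55 to 11.4) in venous-like cells, and Dll4 was 139, 71.2 and 35.4 CPM in the same order. Arterial-like cells thus carried the highest values of Hes1, Hey1, Jag1 and Dll4 among the 3 named subclusters at E16.5. At P3, with 26, 175 and 44 cells, Hes1 was 111, 53.8 and 23.7 CPM in the same order, with wider intervals.

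**Figure D2:**
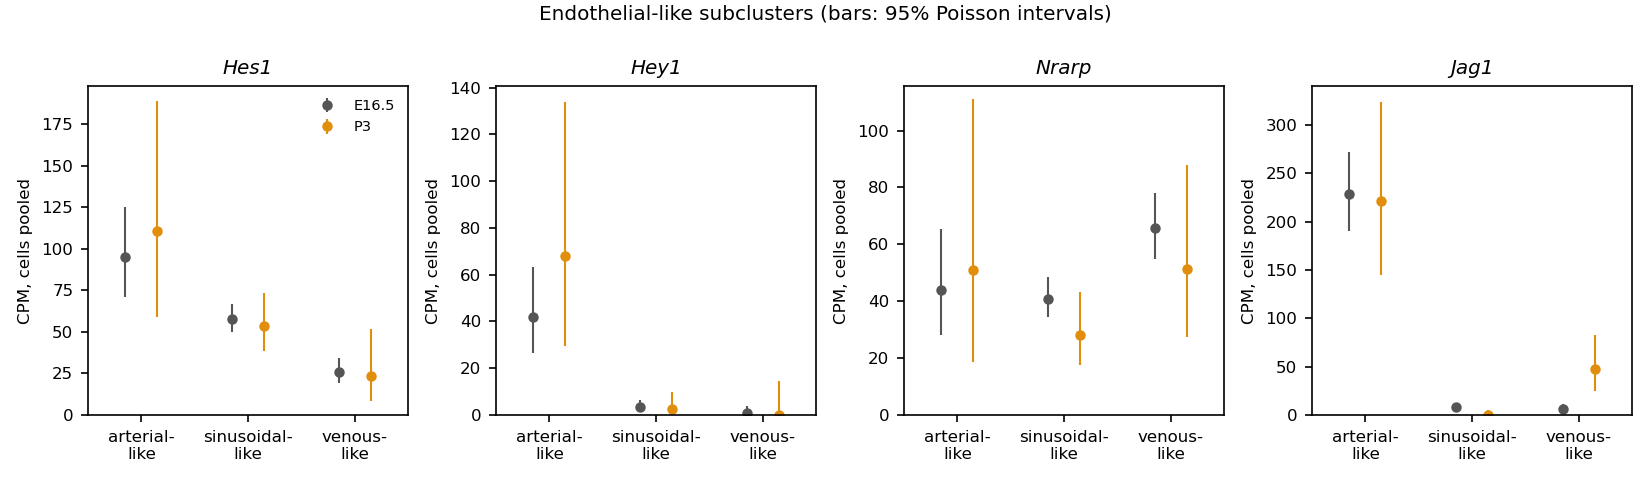
Hes1, Hey1, Nrarp and Jag1 in the arterial-like, sinusoidal-like and venous-like endothelial subclusters at E16.5 (grey) and P3 (orange). The vertical axes give CPM with cells pooled over libraries, points are levels and bars are 95% Poisson intervals for counting error, and Hey1 reaches 42.1 CPM in arterial-like cells at E16.5 against 3.64 and 1.03 CPM in the other subclusters.

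Hey2, the other arterial HEY gene by background, had no UMI in endothelial-like cells at E16.5, where the 3 UMIs that a count of 0 allows correspond to 1.01 to 1.65 CPM per library. Its highest class was mesenchymal-like, with 1.57 CPM in Jag1+/+ replicate 1, 2.91 in the shared library, 2.59 in Jag1Ndr/+ replicate 1, 1.79 in Jag1Ndr/Ndr replicate 1 and 2.80 in Jag1Ndr/Ndr replicate 2. These 5 values lay above all values of the next class, late erythroid-like, at 0.481 ± 0.249 CPM (SD, n = 5). At P3 none of the 4 libraries had a Hey2 UMI in this class, which then held 91 cells. Even in library A, with the most of these cells, 3 UMIs were 5.53 CPM, above every E16.5 value, so this absence cannot show a fall.

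The mesenchymal-like class was a mixture, which bears on every level given for it. At E16.5 it held 117 stellate-like cells, with 18.5 CPM of Hes1 (95% Poisson interval 9.22 to 33.1, 11 UMIs) and 8.40 CPM of Hey2 (2.73 to 19.6, 5 UMIs). A subcluster of 72 cells led by Ptn, Peg3 and Lum, with no name of its own, had 76.2 CPM of Hes1 (57.1 to 99.6, 53 UMIs), 8.62 CPM of Hey2 and 11.5 CPM of Heyl (4.96 to 22.7, 8 UMIs). Another subcluster of 51 cells was led by the endothelial genes Lyve1, Kdr and Stab2, and its 99 Hes1 UMIs (63.9 CPM, 51.9 to 77.8) made up the larger part of the 189 in the class. The mesothelial-like subcluster of 59 cells had 1 Hes1 UMI. A further 191 cells were led by Nppa and Myl4, known from heart muscle, and had 5 Hes1 UMIs and no Hey2 UMI. Subclusters of 25, 113 and 167 cells were led by globin or other erythroid genes, and 1 of 174 cells by AY036118 and hepatocyte genes such as Alb and Apob, with 2 to 8 Hes1 UMIs each. At P3 the class held 91 cells, after 35 cells led by Ins1, Ins2 and other islet genes were taken out of it. Of these 91, 19 were led by Penk, Aspn and Dpt, 17 by Cryab, Timp1 and keratin genes, 16 by Enpp2 and Osr1, 22 by erythroid genes, 14 by neutrophil genes and 3 by hepatocyte genes.

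Heyl had its highest class mean in B-like cells at E16.5. It was 5.42 CPM in Jag1+/+ replicate 1, 7.67 in the shared library, 4.10 in Jag1Ndr/+ replicate 1, 10.7 in Jag1Ndr/Ndr replicate 1 and 5.81 in Jag1Ndr/Ndr replicate 2, a mean of 6.74 ± 2.55 CPM (SD, n = 5). The mesenchymal-like class followed with 3.102 ± 1.51 CPM and was below B-like in 5 of 5 libraries, with ranges that overlapped. As with Hes1, the Vpreb1- and Igll1-led cluster held the higher level, 10.6 CPM against 1.46 CPM in the cluster led by Igkc. Over the 28 means of class and stage, Heyl and Hes1 had a Pearson correlation of 0.64, a description of means that share libraries.

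Nrarp was highest in endothelial-like cells at E16.5, with 39.0, 36.6 and 23.1 CPM in Jag1+/+ replicate 1, the shared library and Jag1Ndr/+ replicate 1, and 40.6 and 22.3 CPM in Jag1Ndr/Ndr replicates 1 and 2. This was above the T and NK-like class (17.1 ± 10.2 CPM, SD, n = 5) in 5 of 5 libraries, and above basophil and mast-like cells (14.4 ± 4.35 CPM). The T and NK-like class held only 10 to 35 cells per library at E16.5. At P3 the T and NK-like class led with 34.7, 30.0, 25.6 and 20.9 CPM in libraries A to D, and endothelial-like cells had 19.9 ± 4.40 CPM (SD, n = 4), with overlapping ranges. Among T and NK-like cells at P3, the cluster of 583 cells led by Ccl5 and Gzma, genes of cytotoxic cells, had 36.1 CPM of Nrarp.

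Rbpj, the DNA-binding mediator itself, was found in every class and was highest in dendritic-like cells. At E16.5 the dendritic-like values were 82.4, 79.6 and 43.7 CPM in Jag1+/+ replicate 1, the shared library and Jag1Ndr/+ replicate 1, and 68.1 and 69.8 CPM in Jag1Ndr/Ndr replicates 1 and 2. The monocyte-like class had 53.0 ± 10.3 CPM (SD, n = 5) and overlapped it. At P3 the dendritic-like values were 107, 168, 135 and 161 CPM in libraries A to D, all above the next class, mesenchymal-like, at 66.1 ± 23.1 CPM (SD, n = 4). Within the dendritic-like class at P3, the larger of the clusters led by the antigen-presentation gene H2-Aa had 206 CPM in 458 cells.

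Among the Fringe genes, Lfng was highest in the T and NK-like class, at 48.9 ± 14.9 CPM (SD, n = 5) at E16.5 and 73.9 ± 19.4 CPM (SD, n = 4) at P3. Macrophage-like cells followed, at 23.9 ± 5.71 CPM at E16.5, where no library overlapped the T and NK-like range, and at 60.5 ± 15.6 CPM at P3, where the ranges overlapped. Mfng was highest in stem and progenitor-like cells, at 39.0 ± 3.87 CPM (SD, n = 5) and 48.5 ± 15.8 CPM (SD, n = 4), with the T and NK-like class next at 26.0 ± 16.3 and 42.3 ± 5.18 CPM and overlapping at both stages. Rfng had no class that stood apart at the top. Its highest means were 9.34 ± 5.18 CPM in T and NK-like cells at E16.5 and 13.4 ± 4.07 CPM in mesenchymal-like cells at P3, and both overlapped their next class. The P3 mean rested on 10 UMIs in the mixed class of 91 cells, with 1 UMI each in libraries C and D.

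Dtx4 was highest in neutrophil-like cells, with 8.57 ± 3.03 CPM (SD, n = 5) at E16.5 and 16.6 ± 2.34 CPM (SD, n = 4) at P3. It was concentrated in the clusters led by Elane and Prtn3, genes of early granulocyte precursors, where it reached 22.8 CPM in 1618 cells at E16.5 and 31.4 CPM in 2171 cells at P3. The other neutrophil-like clusters had 3.56 and 3.77 CPM at E16.5 and 4.48 to 8.15 CPM at P3. At P3 stem and progenitor-like cells, at 15.9 ± 1.70 CPM, could not be separated from the neutrophil-like class.

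Whether the homozygous Ndr allele goes with altered levels of these genes was asked at E16.5, where Jag1Ndr/Ndr replicates 1 and 2 were set against Jag1+/+ replicate 1, Jag1Ndr/+ replicate 1 and the shared library. The quasi-likelihood test of edgeR was run on UMIs summed per library and class, and its p-values were adjusted by Benjamini-Hochberg over all 148565 pairs of gene and class. None of the 91 tested pairs of member and class was called, and DESeq2 called none either. Over all features, 1 pair was called (0.000673%), the orphan receptor gene Adgrg5 in monocyte-like cells, named after its value was seen, and 1.88% had an unadjusted p under 0.05. For the members that number was 2 of 91, and their median log2 fold change was 0.03, beside -0.01 over all features. Every adjusted p of a member was 1.00.

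The target genes are given here in the classes where they were highest and in some others. Hes1 in B-like cells was 59.5, 52.5 and 47.0 CPM in the 3 libraries without the homozygous label and 59.8 and 63.1 CPM in the 2 with it. The homozygous values lay above the others by a small margin, at a log2 fold change of 0.19 (SE 0.183; edgeR adjusted p = 1.00). In endothelial-like cells Hes1 was 43.9, 39.0 and 19.8 CPM against 30.5 and 47.2 CPM, which overlapped in part, with a homozygous library highest (log2 fold change 0.22, SE 0.251). Nrarp in endothelial-like cells, listed above, overlapped as well (log2 fold change -0.06, SE 0.259). Hey1 in endothelial-like cells was 2.75, 3.70 and 4.12 CPM against 3.93 and 2.27 CPM, again overlapping (log2 fold change -0.24, SE 0.534). In macrophage-like cells, its highest class, Hey1 was 6.86, 3.81 and 1.96 CPM against 5.22 and 6.42 CPM, which overlapped (log2 fold change 0.51, SE 0.387). Heyl in B-like cells was 5.42, 7.67 and 4.10 CPM against 10.7 and 5.81 CPM, with overlap and Jag1Ndr/Ndr replicate 1 highest (log2 fold change 0.56, SE 0.294, unadjusted p = 0.0912 by edgeR). In hepatocyte-like cells Hes1 was 12.1, 26.7 and 15.3 CPM against 10.3 and 16.9 CPM, with the shared library highest (log2 fold change -0.34, SE 0.324).

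**Figure D3:**
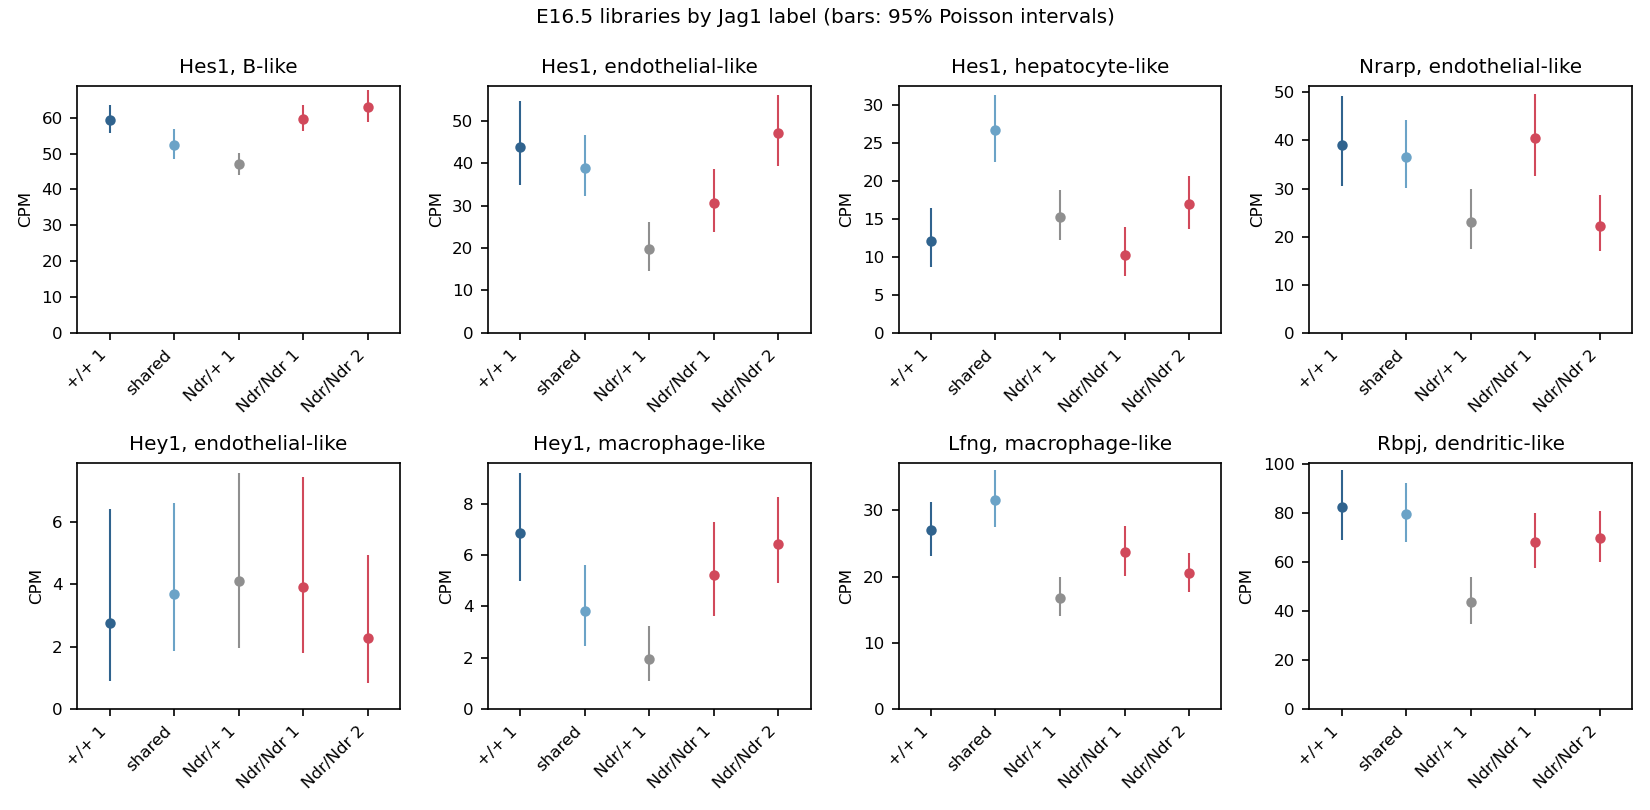
Levels of Hes1, Nrarp, Hey1, Lfng and Rbpj in selected classes in each of the 5 E16.5 libraries, labelled by Jag1 genotype on the horizontal axis (dark blue +/+, light blue shared library, grey Ndr/+, red Ndr/Ndr). The vertical axes give CPM, points are single libraries and bars are 95% Poisson intervals, and in the endothelial-like panels the 2 red points lie within or beside the range of the other 3.

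Of the 2 pairs with an unadjusted p under 0.05, 1 rested on small numbers. Hes1 in basophil and mast-like cells was 3.78, 3.89 and 3.43 CPM without the homozygous label and 19.3 and 5.05 CPM with it, from 3, 6, 2, 19 and 3 UMIs. Jag1Ndr/Ndr replicate 1 alone stood apart, and the log2 fold change was 1.78 (SE 0.609, unadjusted p = 0.0103 by edgeR). Lfng in stem and progenitor-like cells was 7.955, 7.92 and 4.81 CPM without the homozygous label and 12.6 and 11.1 CPM with it, from 100 UMIs in all. The groups did not overlap (log2 fold change 0.83, SE 0.342, unadjusted p = 0.0301 by edgeR). In all, 8 of the 91 member pairs had groups that did not overlap, 4 of them higher and 4 lower with the homozygous label. The higher ones were Hes1 in B-like and basophil and mast-like cells, Lfng in stem and progenitor-like cells and Mfng in monocyte-like cells (log2 fold change 0.25). Lower were Nrarp in basophil and mast-like (-0.69) and stem and progenitor-like cells (-0.78), and Rfng in hepatocyte-like (-0.26) and stem and progenitor-like cells (-0.89). Over all features 10.2% of pairs did not overlap, 4.33% higher and 5.88% lower.

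The rest of the pathway gave no calls at E16.5 either. None of 16 ligand pairs, 34 receptor pairs, 212 processing and trafficking pairs, 192 RBPJ cofactor pairs or 123 pairs of other HES and Notch-linked genes was called. An unadjusted p under 0.05 by edgeR was reached by 1, 2, 2, 11 and 3 of them in that order, beside 1.88% of pairs over all features. The 192 cofactor pairs come from 15 genes over 13 classes of the same libraries. Pairs of 1 gene are therefore not separate observations, and the shares are not read as a result about a list. Jag1, which carries the allele and is not deleted by it, cannot check the labels through its level.

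At P3 only libraries C and D had a label of their own, so values are given with Poisson intervals and no test. Among 52 member pairs with at least 25 UMIs, the intervals lay apart in 11, with 4 higher in C (Jag1Ndr/Ndr) and 7 higher in D (Jag1Ndr/+). Over all features this held for 21.6% of pairs, so the members' share was near that background. Hes1 was higher in D in 3 of these pairs. It was 15.2 CPM in C (13 to 17.7) and 24.7 CPM in D (21.3 to 28.5) in B-like cells, and 18.3 CPM (14.3 to 23.1) and 36.6 CPM (30.1 to 44.1) in macrophage-like cells. In hepatocyte-like cells Hes1 was 8.49 CPM in C (3.88 to 16.1, 9 UMIs) and 43.0 CPM in D (30.4 to 59.0, 38 UMIs). Over the 4 P3 libraries, hepatocyte-like Hes1 was 20.5 ± 15.6 CPM (SD, n = 4). In macrophage-like cells the highest P3 value of Hes1, 39.3 CPM, was in neither C nor D. The other pairs higher in D were Rbpj in early erythroid-like, monocyte-like and neutrophil-like cells and Dtx4 in macrophage-like cells. Mfng in stem and progenitor-like cells went the other way, at 68.7 CPM in C (54.8 to 85.0) and 32.0 CPM in D (21.6 to 45.7), and Rfng was higher in C in B-like, early erythroid-like and neutrophil-like cells. These are differences between 2 libraries, and animal and genotype cannot be told apart in them.

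The change between stages was tested on all 5 E16.5 against all 4 P3 libraries, whatever their genotype label, in the 12 classes with at least 20 cells in each library. Stage is confounded with the digestion, with the software version and with the gene list, and these cannot be told apart from age. With the same edgeR test and adjustment, 42.2% of all 140527 pairs were called, 21.1% higher and 21.1% lower at P3. Of the 91 member pairs, 40 were called (44.0%), 23 higher and 17 lower, which is near that background. The median log2 fold change of the member pairs was 0.15, also with Hey2 at its bound, beside 0.00 over all features. An unadjusted p under 0.05 was reached by 44 of the 91 member pairs and by 50.1% of all pairs. Without libraries A and B, 30 of 88 member pairs were called, beside 32.8% of all 135883 pairs. In that fit Hes1 (-1.75) and Heyl (-2.99) in B-like cells, Rbpj in dendritic-like (0.95), Lfng in macrophage-like (0.63), Dtx4 in stem and progenitor-like (1.85), Rfng in early erythroid-like (0.89) and Nrarp in endothelial-like cells (-0.85) each kept its call. The members' directions divided by gene. Hes1, Hey2, Heyl and most Nrarp calls were lower at P3, and all Mfng and Rfng calls and most Dtx4 and Lfng calls were higher. The stages did not overlap in 33 of the 91 member pairs, 22 higher and 11 lower at P3. The higher ones were 6 Rfng, 5 Dtx4, 4 Mfng, 4 Lfng, 2 Rbpj and 1 Nrarp pairs, and the lower ones 5 Hes1, 3 Hey2, 2 Nrarp and 1 Heyl pairs. Over all pairs 31.7% did not overlap, 19.7% higher and 12% lower.

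**Figure D4:**
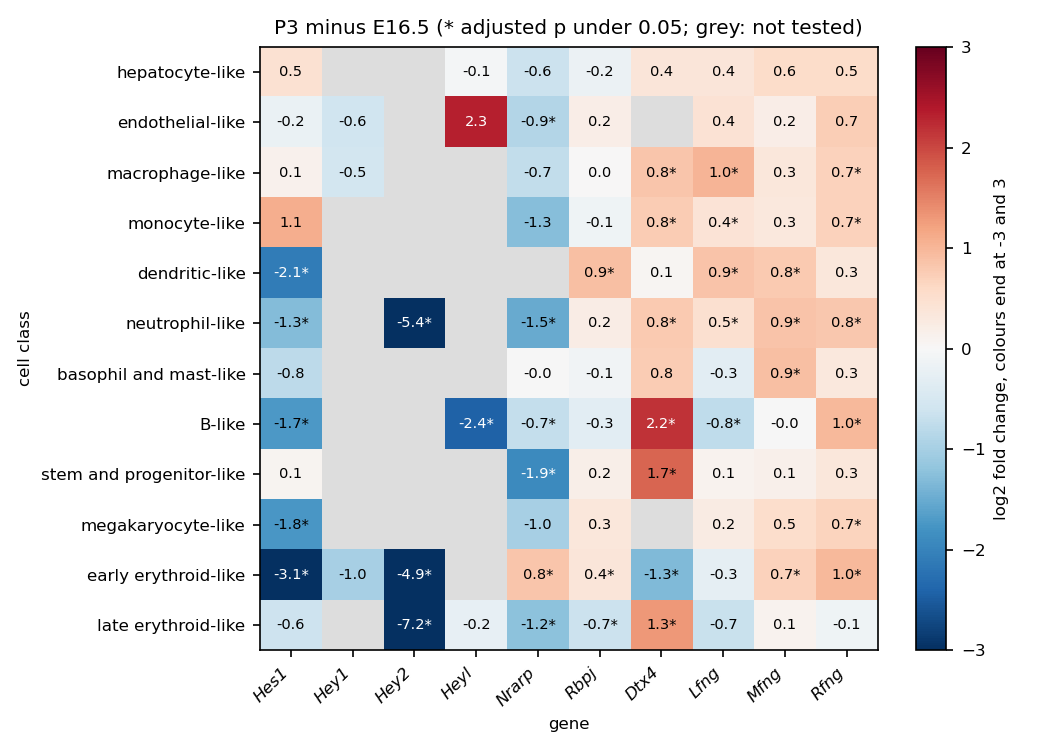
Log2 fold change of P3 over E16.5 for each gene (columns) in each class (rows) from edgeR's quasi-likelihood test, with colours that end at -3 and 3. Asterisks mark an adjusted p under 0.05 and grey marks pairs with too few UMIs; Hes1 is called only in the negative direction, Rfng only in the positive, and the Hey2 values rest on 0 or 1 UMI at P3.

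Hes1 fell in 5 of 12 classes and rose in none. In B-like cells it was 47.0 to 63.1 CPM over the 5 E16.5 libraries, listed above, and 23.65, 16.49, 15.2 and 24.7 CPM in P3 libraries A to D. The stages did not overlap (log2 fold change -1.72, SE 0.169, adjusted p = 1.2e-05 by edgeR). Hes1 also fell in dendritic-like cells, from 5.14 to 12.1 CPM at E16.5 to 1.13, 2.04, 0.670 and 4.28 CPM at P3 (log2 fold change -2.09, SE 0.447, adjusted p = 0.00172 by edgeR). That class held different clusters at the 2 stages, as given with Rbpj, and the part of this make-up in the Hes1 result was not tested. In early erythroid-like cells it went from 1.09 to 2.89 CPM at E16.5 to 0.432, 0.260, 0.178 and 0.257 CPM at P3 (log2 fold change -3.14, SE 0.417, adjusted p = 0.000107 by edgeR). Megakaryocyte-like and neutrophil-like cells were the other classes, with log2 fold changes of -1.75 and -1.29, and the megakaryocyte-like call, with an adjusted p of 0.0494 by edgeR, was lost without library D (-1.58) and with DESeq2 (-1.94). That call rested on 20 Hes1 UMIs at E16.5 and 5 at P3, just at the filter of 25 summed UMIs. In the Elane- and Prtn3-led neutrophil-like clusters alone, Hes1 was 0.891 ± 0.733 CPM (SD, n = 5) at E16.5 and 0.4145 ± 0.269 CPM (SD, n = 4) at P3. The log2 ratio of these means was -1.10, close to the value over the class, and the test on the log2(CPM + 1) scale, where levels under 1 CPM give small differences, missed the threshold (-0.34, exact permutation p = 0.325). The early erythroid-like, megakaryocyte-like and neutrophil-like falls were between levels near the background given above. Late erythroid-like cells went from 1.29 to 0.473 CPM of Hes1 and from 0.140% to 0.0464% of thinned cells. The E16.5 means were 1.945 CPM (0.271% of thinned cells) in early erythroid-like, 1.99 CPM (0.26%) in megakaryocyte-like and 0.880 CPM (0.106%) in neutrophil-like cells, and the P3 shares were 0.0375%, 0.0526% and 0.054%. A change of free Hes1 RNA with stage was not tested as a part of these 3 falls. B-like and dendritic-like cells, at 56.4 and 7.19 CPM, stood above that level at E16.5. The 7 other classes were not called. Their log2 fold changes were -0.20 in endothelial-like, 0.13 in macrophage-like, 0.45 in hepatocyte-like, 0.08 in stem and progenitor-like, -0.63 in late erythroid-like, -0.79 in basophil and mast-like and 1.10 (SE 0.602) in monocyte-like cells, where the means were 0.843 CPM at E16.5 and 2.29 CPM at P3.

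B-like cells at the 2 stages did not hold the same kinds of cluster, so the test was repeated within the clusters led by Igll1 and Vpreb1 at both stages, a step added after seeing the data. Hes1 was 72.4 ± 8.57 CPM (SD, n = 5) there at E16.5 and 24.5 ± 8.59 CPM (SD, n = 4) at P3. The ranges, 62.2 to 83.4 and 16.2 to 35.4 CPM, did not overlap. The difference was -1.58 on the log2(CPM + 1) scale (exact permutation test over libraries, two-sided p = 0.00794, the smallest that 126 splits allow, and 0.0476 adjusted over the 30 tests of this kind). Dissociation and immediate early genes, which respond to tissue digestion, also fell in B-like cells, 8 of 16 lower and 1 higher, with Atf3 at -1.78, Fos at -0.31 and Egr1 at 0.51. Their part in the Hes1 result was not tested.

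The HEY genes fell where they were called. Heyl in B-like cells was 4.10 to 10.7 CPM at E16.5, listed above, and 2.25, 1.27, 0.712 and 1.33 CPM in P3 libraries A to D. The stages did not overlap (log2 fold change -2.42, SE 0.341, adjusted p = 0.000165 by edgeR). Within the Igll1- and Vpreb1-led clusters, Heyl was 10.6 ± 5.01 CPM (SD, n = 5) and 4.26 ± 2.49 CPM (SD, n = 4), a difference of -1.18 on the log2(CPM + 1) scale with ranges that overlapped, and this missed the threshold (exact permutation p = 0.0238, adjusted p = 0.0794). Hey1 was not called in the 3 classes tested, with log2 fold changes of -0.54 in macrophage-like, -0.60 in endothelial-like and -0.99 in early erythroid-like cells. Heyl in endothelial-like cells was 0 to 1.31 CPM at E16.5 and 0.596, 2.19, 14.2 and 0 CPM in P3 libraries A to D, and library C alone was high, with 14 UMIs (log2 fold change 2.34, SE 0.921, adjusted p = 0.0521 by edgeR). This mixed class included at P3 the 58 cells led by Cxcl12, Dcn, Reln and Lum, and their part in the Heyl value was not tested.

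Hey2 all but vanished from the counts at P3. Over all kept cells there were 301 Hey2 UMIs at E16.5 (0.352 CPM) and 3 at P3 (0.00726 CPM), a CPM ratio of 48.6 (95% interval 16.46 to 237, counting error only). Late erythroid-like cells had 149 UMIs at E16.5 and 0 at P3, at least 10.2-fold lower by the floor of 3 UMIs over the group (exact 95% lower limit of the ratio 8.22). Neutrophil-like cells had 26 and 0, at least 6.94-fold lower by the same floor (lower limit 5.25). Early erythroid-like cells had 54 and 1, a ratio of 35.4 (6.09 to 1.42e+03, counting error only). These 3 classes were called lower by edgeR, and the neutrophil-like call was lost without libraries A and B (adjusted p = 0.0614 by edgeR). Each of the 3 pairs passed the filter of 25 summed UMIs through its E16.5 counts, so it could only be called lower. The calls, which are among the 40 member calls, therefore add no support to the counts. At E16.5 Hey2 was 0.481 CPM in late erythroid-like cells, the class used above as background, 0.320 in early erythroid-like and 0.231 in neutrophil-like cells. Levels were alike in B-like (0.313), monocyte-like (0.319) and macrophage-like cells (0.280). The part of free Hey2 RNA in the falls was not tested. The gene lists of the 2 stages differ, and a change in how reads were assigned to Hey2 cannot be told apart from a change in its RNA.

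Nrarp moved in both directions. In early erythroid-like cells it was 2.92 CPM in Jag1+/+ replicate 1, 2.16 in the shared library, 2.00 in Jag1Ndr/+ replicate 1, and 4.37 and 2.17 in the homozygous replicates 1 and 2 of E16.5, and 8.31, 4.64, 6.34 and 5.26 CPM in P3 libraries A to D. All P3 values lay above all E16.5 values (log2 fold change 0.84, SE 0.241, adjusted p = 0.0144 by edgeR). The class had a different make-up at each stage. Before doublets were removed, its cluster richest in UMIs held 1529 barcodes at E16.5 (median 20253 UMIs), beside clusters of 4122, 8458 and 12826. At P3 the richest cluster held 3272 barcodes (median 16740 UMIs), beside clusters of 2320 and 6118. The part of this make-up in the early erythroid-like changes of Nrarp and the other members was not tested. In stem and progenitor-like cells Nrarp was 3.17 to 9.25 CPM at E16.5 and 2.13, 3.998, 0.817 and 0 CPM at P3, with library B overlapping (log2 fold change -1.90, SE 0.487, adjusted p = 0.00491 by edgeR). Libraries A to D held 7, 8, 1 and 0 Nrarp UMIs in this class, so without A and B the P3 side would rest on 1 UMI, and no value is given for that case. The stem and progenitor-like class did not hold the same clusters at both stages. At P3 it had a cluster of 264 cells led by Cd34, Hmga2 and Ifitm1, with the myeloid genes Mpo and Plac8 among its leading genes, and another of 334 cells led by Hmga2, Adgrl4 and Cd34. At E16.5 a cluster of 213 barcodes led by Mpo, Hmga2 and Cd34 stayed unnamed and outside the class, whose largest cluster of 356 cells was led by Ctla2a and Hmga2. Nrarp was 0.999 and 3.48 CPM in the P3 clusters of 264 and 334 cells, and 9.61 CPM in the E16.5 cluster of 356 cells. The part of this make-up in the Nrarp fall was not tested.

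In endothelial-like cells Nrarp fell, from 22.3 to 40.6 CPM at E16.5 to 20.3, 14.2, 20.2 and 24.9 CPM in P3 libraries A to D, with overlap (log2 fold change -0.88, SE 0.224, adjusted p = 0.00535 by edgeR). Within the arterial-like, sinusoidal-like and venous-like subclusters it was 49.9 ± 12.9 CPM (SD, n = 5) and 34.6 ± 12.8 CPM (SD, n = 4), a difference of -0.58 on the log2(CPM + 1) scale that missed the threshold (exact permutation p = 0.103, adjusted p = 0.193). Of the dissociation genes, 13 of 16 fell in endothelial-like cells and none rose, with Fos at -1.62, Jun at -1.32, Egr1 at -1.03 and Atf3 at -1.48. In stem and progenitor-like cells 16 of 16 fell. Their part in the Nrarp results was not tested. Nrarp also fell in B-like (-0.72), late erythroid-like (-1.22) and neutrophil-like cells (-1.52). The neutrophil-like call was lost without libraries A and B (-1.06, adjusted p = 0.104 by edgeR), and in the Elane- and Prtn3-led clusters alone Nrarp was 0.718 CPM at E16.5 and 0.268 CPM at P3, a log2 ratio of -1.42 (-0.49 on the log2(CPM + 1) scale, which missed the threshold, exact permutation p = 0.0714). The late erythroid-like and neutrophil-like falls were between levels under 1 CPM, and the neutrophil-like level at E16.5 was near that of late erythroid-like cells, the class used above as background. Nrarp went from 0.627 to 0.1501 CPM (0.0752% to 0.0125% of thinned cells) in late erythroid-like cells and from 0.695 to 0.301 CPM (0.0765% to 0.0288%) in neutrophil-like cells. In the Igll1- and Vpreb1-led B-like clusters Nrarp was 4.05 and 2.49 CPM (-0.55 on the log2(CPM + 1) scale), which missed the threshold after adjustment (exact permutation p = 0.0397, adjusted p = 0.108). The B-like call was lost without library B (-0.51), without A and B (-0.48) or without either Jag1Ndr/Ndr library of E16.5 (-0.70 each), and the late erythroid-like call without library B (-1.03) or library D (-0.99).

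Rbpj rose in dendritic-like cells, from the E16.5 values of 43.7 to 82.4 CPM to 107, 168, 135 and 161 CPM at P3. The stages did not overlap (log2 fold change 0.91, SE 0.156, adjusted p = 0.000334 by edgeR). The class held different clusters at the 2 stages. At P3, clusters of 458, 277 and 55 cells led by H2-Aa made up most of its 1061 cells. At E16.5, of 836 cells, 103 and 128 were in clusters led by Cd74 and H2-Aa, 292 in one led by Ccl4 and Cst3, 146 in one led by Gm26917 and 167 in one led by Ly6d and Siglech, a gene of plasmacytoid dendritic cells. Rbpj was 206, 110 and 143.5 CPM in the 3 H2-Aa-led clusters of P3, and 52.8 CPM in 150 cells led by Siglech. It was 60.1 and 103.2 CPM in the 2 clusters of E16.5 led by Cd74 and H2-Aa, 82.2 CPM in the Ccl4- and Cst3-led cluster and 38.1 CPM in the Ly6d- and Siglech-led cluster. The part of this make-up in the Rbpj rise was not tested. Rbpj also rose in early erythroid-like cells (0.36) and fell in late erythroid-like cells (-0.65), and the early erythroid-like call, with an adjusted p of 0.0469 by edgeR, was lost when any one library other than A or C was left out, with values from 0.27 to 0.40.

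Lfng rose in macrophage-like cells, from 27.0, 31.5, 16.8, 23.7 and 20.5 CPM at E16.5, in the order of libraries used for Nrarp, to 64.1, 80.8, 45 and 52.2 CPM at P3. Every P3 library lay above every E16.5 library (log2 fold change 1.02, SE 0.179, adjusted p = 0.00061 by edgeR). In the macrophage-like cluster with less Hba-a1 at each stage, Lfng was 50.6 ± 7.66 CPM (SD, n = 5) and 87.4 ± 20.1 CPM (SD, n = 4), again without overlap (0.76 on the log2(CPM + 1) scale, exact permutation p = 0.00794, adjusted p = 0.0476). Hes1 in that cluster was 49.5 ± 6.14 and 46.7 ± 12.7 CPM (exact permutation p = 0.683). Lfng also rose in dendritic-like cells, from 8.73 to 20.9 CPM to 33.0, 29.1, 24.8 and 34.2 CPM (log2 fold change 0.86, SE 0.214, adjusted p = 0.00467 by edgeR). There it was 37.5, 39.7 and 38.9 CPM in the H2-Aa-led clusters of P3 and 21.5 and 21.03 CPM in the Cd74- and H2-Aa-led clusters of E16.5, and the part of the class's make-up was not tested. Lfng rose in neutrophil-like (0.49) and monocyte-like cells (0.41) too. In the Elane- and Prtn3-led neutrophil-like clusters Lfng was 2.84 and 5.60 CPM (0.83 on the log2(CPM + 1) scale), which missed the threshold after adjustment (exact permutation p = 0.0238, adjusted p = 0.0794). The neutrophil-like call was lost without Jag1+/+ replicate 1 of E16.5 (0.44), library A (0.45) or library B (0.42). The monocyte-like call was lost without Jag1+/+ replicate 1, Jag1Ndr/+ replicate 1 or Jag1Ndr/Ndr replicate 2 of E16.5, library A or library B, with values from 0.36 to 0.40.

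In B-like cells the sign of the Lfng change depended on which cells were compared. Over the class Lfng was 9.21 to 19.4 CPM at E16.5 and 8.75, 11.1, 8.55 and 8.67 CPM at P3, which edgeR called lower (log2 fold change -0.76, SE 0.153, adjusted p = 0.00185). Within the Igll1- and Vpreb1-led clusters it was 17.3 ± 3.39 CPM (SD, n = 5) and 22.8 ± 6.59 CPM (SD, n = 4), a difference of 0.35 on the log2(CPM + 1) scale that missed the threshold (exact permutation p = 0.159, adjusted p = 0.251). At P3, Lfng was 20.6 CPM in this cluster and 4.21 CPM in the cluster of 3693 cells led by Igkc and Ms4a1, a gene of more mature B cells.

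**Figure D5:**
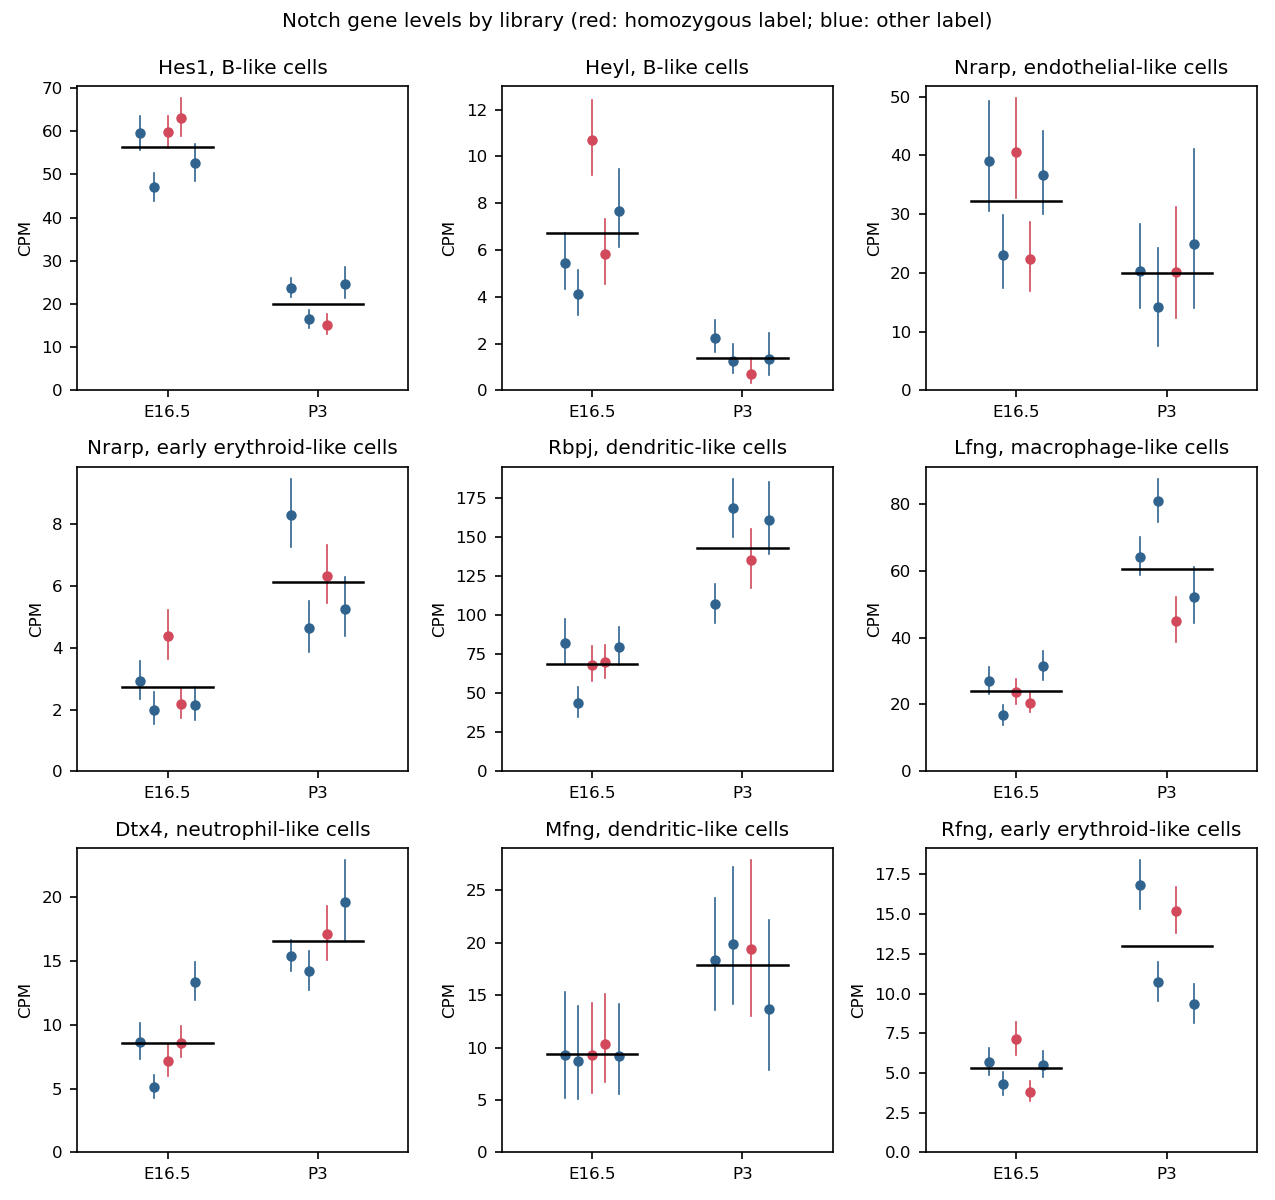
Levels of 9 pairs of gene and class in each library at E16.5 and P3, with red points for libraries with only a Jag1Ndr/Ndr label and blue points for all others. The vertical axes give CPM, bars are 95% Poisson intervals and black lines are stage means; Hes1 and Heyl in B-like cells lie lower at P3 in every library, and Rbpj in dendritic-like and Lfng in macrophage-like cells lie higher in every library.

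Mfng and Rfng were called only upward. Mfng in dendritic-like cells was 9.29, 9.20, 8.73, 9.27 and 10.3 CPM at E16.5 and 18.4, 19.9, 19.4 and 13.7 CPM at P3, without overlap (log2 fold change 0.79, SE 0.198, adjusted p = 0.00522 by edgeR). Between the larger dendritic-like clusters it ranged from 3.67 to 11.8 CPM at E16.5 and from 6.15 to 23.98 CPM at P3, and the part of the class's make-up in the rise was not tested. It also rose in basophil and mast-like (0.91), neutrophil-like (0.86) and early erythroid-like cells (0.68). The basophil and mast-like call was lost without the shared library (0.87), Jag1Ndr/Ndr replicate 1 (0.85), library A (0.66) or library B (0.86), and the early erythroid-like call without the shared library (0.64), library A (0.52) or library B (0.60). In the Elane- and Prtn3-led neutrophil-like clusters Mfng was 7.92 and 14.65 CPM, without overlap (0.81 on the log2(CPM + 1) scale, exact permutation p = 0.00794, adjusted p = 0.0476). Without both A and B, whose genotype is uncertain, none of the 4 Mfng calls was kept, at 0.30 to 0.70. Rfng in early erythroid-like cells was 3.80 to 7.12 CPM at E16.5 and 16.8, 10.7, 15.2 and 9.32 CPM at P3, without overlap (log2 fold change 0.97, SE 0.202, adjusted p = 0.00231 by edgeR). The part of the class's make-up, given with Nrarp, in this rise was not tested. Rfng rose in 6 of 12 classes in all, by 0.67 to 0.98, and the changes that were not called ranged from -0.14 to 0.73. The megakaryocyte-like rise (0.67, adjusted p = 0.0481 by edgeR) was lost when any one library other than Jag1+/+ replicate 1 of E16.5 was left out, with values from 0.52 to 0.72. The monocyte-like rise (0.69) was lost without libraries A and B (0.60, adjusted p = 0.0704 by edgeR). In the Elane- and Prtn3-led neutrophil-like clusters Rfng was 4.13 and 7.04 CPM, a difference of 0.62 on the log2(CPM + 1) scale that missed the threshold after adjustment (exact permutation p = 0.0317, adjusted p = 0.0952). In the macrophage-like cluster with less Hba-a1 it was 7.94 and 12.96 CPM (0.64, exact permutation p = 0.00794, adjusted p = 0.0476). In B-like cells Rfng was 3.2 to 5.26 CPM at E16.5 and 10.4, 8.88, 12.6 and 8.01 CPM at P3 (log2 fold change 0.98, SE 0.174, adjusted p = 0.00082 by edgeR), and in the Igll1- and Vpreb1-led clusters it was 4.397 and 9.96 CPM (0.97 on the log2(CPM + 1) scale, exact permutation p = 0.00794, adjusted p = 0.0476).

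Dtx4 rose in 6 of 10 classes and fell in 1. In stem and progenitor-like cells it was 8.75, 4.27, 2.59, 0.967 and 3.57 CPM at E16.5 and 14.3, 14.99, 16.4 and 18.1 CPM at P3, without overlap (log2 fold change 1.74, SE 0.347, adjusted p = 0.000766 by edgeR). By cluster it was 20.5 CPM in the 264 cells of P3 with Mpo among their leading genes and 9.27 CPM in the other 334, and at E16.5 it was 15.02 CPM in 133 cells, 1.44 CPM in the 356 cells led by Ctla2a, 2.497 CPM in 178 cells and 0 in 72 cells. The part of this make-up in the rise was not tested. In neutrophil-like cells it was 5.10 to 13.3 CPM at E16.5 and 15.3, 14.2, 17.1 and 19.6 CPM at P3 (log2 fold change 0.78, SE 0.163, adjusted p = 0.00206 by edgeR). In the Elane- and Prtn3-led clusters the levels were 22.0 ± 4.73 and 31.5 ± 3.04 CPM, a difference of 0.51 on the log2(CPM + 1) scale that missed the threshold after adjustment (exact permutation p = 0.0238, adjusted p = 0.0794). In B-like cells Dtx4 was 0.176 to 1.78 CPM at E16.5 and 3.47, 3.66, 4.28 and 5.07 CPM at P3 (log2 fold change 2.16, SE 0.395, adjusted p = 0.00098 by edgeR). Most of this lay in the Igkc- and Ms4a1-led cluster, at 10.8 CPM, and within the Igll1- and Vpreb1-led clusters it was 1.02 and 2.23 CPM, a log2 ratio of 1.13 that missed the threshold (0.61 on the log2(CPM + 1) scale, exact permutation p = 0.238). The fall in early erythroid-like cells (-1.33, adjusted p = 0.0355 by edgeR) was between levels under 1 CPM and was lost without the shared library, Jag1Ndr/+ replicate 1 or Jag1Ndr/Ndr replicate 2 of E16.5, or library B, C or D, at -1.10 to -1.45. The edgeR values rest on TMM scaling, and in late erythroid-like cells the values for Dtx4, Hes1, Heyl, Nrarp, Rbpj, Lfng, Mfng and Rfng all lay above the ratios of CPM. Mfng there was 0.10 by edgeR, beside means of 0.647 CPM at E16.5 and 0.355 CPM at P3. In early erythroid-like and macrophage-like cells the edgeR values for Rfng and Hes1 lay below these ratios. The Dtx4 rise in late erythroid-like cells (1.30) stands beside 0.341 ± 0.219 CPM (SD, n = 5) and 0.454 ± 0.209 CPM (SD, n = 4), which overlapped. It was lost without library A (0.89), and the rise in macrophage-like cells (0.83) without the shared library, Jag1Ndr/+ replicate 1 or Jag1Ndr/Ndr replicate 1 of E16.5, library B or library D, at 0.61 to 0.85. In the macrophage-like cluster with less Hba-a1, Dtx4 was 6.095 and 9.83 CPM (0.57 on the log2(CPM + 1) scale, exact permutation p = 0.0635, adjusted p = 0.136). Monocyte-like cells rose too (0.76).

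The other genes of the pathway are given as counts over whole lists, to be read beside the 21.1% of all pairs called higher and the 21.1% called lower. Of 21 ligand pairs, 11 were called lower and none higher, with a median log2 fold change of -1.44. Dll4 (-0.89) and Dll1 (-1.65) fell in endothelial-like cells, Jag2 fell in stem and progenitor-like cells (-1.47), and Jag1 fell in neutrophil-like cells (-1.85). Of 34 receptor pairs, 16 were called lower and 2 higher, with a median of -0.60. Notch2 fell in 9 classes, for example in monocyte-like cells (-1.72), Notch1 fell in 6, and the 2 rises were Notch4 in dendritic-like (2.67) and early erythroid-like cells (1.40).

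Of 200 pairs for processing and trafficking, 36 rose and 49 fell, which is near that background. The ligand-uptake ligase gene Neurl3 rose in B-like (3.02) and macrophage-like cells (1.77), and the receptor protease gene Adam10 fell in stem and progenitor-like cells (-1.46). Of 179 RBPJ cofactor pairs, 44 rose and 45 fell, also near it, and the coactivator genes Maml1 (-1.81) and Maml3 (-1.37) fell in B-like cells. Of 126 pairs of other HES and Notch-linked genes, 42 rose and 29 fell, with Hes6 up in stem and progenitor-like cells (1.17), Nfkb2 up in B-like cells (2.60) and Myc down in endothelial-like cells (-2.27). The dissociation and immediate early genes fell in 145 of 192 pairs and rose in 7, with a median of -1.41, so they moved with stage in most classes.

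The genes whose pattern over the 28 means of class and stage was most like each member's were found among 10001 or 10002 genes, depending on the member, by the Pearson correlation of log2(mean CPM + 1). For Hes1 they were Slc12a7, Adgrl2 and Maml2, each at 0.83. For Hey1 they were Ptprm (0.96), Itga9 (0.94) and Il1a (0.93), for Hey2 Nppa (0.86), and for Heyl Steap4 (0.89). Nrarp was closest to St6galnac3 (0.87), Rbpj to Ube2e1 (0.93), Dtx4 to Adssl1 (0.88), Lfng to Prex1 (0.88) and Mfng to Gmds (0.88). Ppp1r7, Sbf1 and Sap30bp were at 0.96 with Rfng. The means share libraries and depth, and these values are descriptions. Likeness of class means does not place genes in the same cells. The Nppa- and Myl4-led subcluster of the mixed mesenchymal-like class at E16.5, for example, had no Hey2 UMI.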

How the data were processed

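Whole mouse livers were dissociated and run on a 10x Genomics platform, per the labels' protocols. The deposited files are raw UMI counts per gene and barcode, per the file headers. The submitters' processing notes name Cell Ranger 2.1.1, mm10, R 4.1.2 and Seurat, while the matrix headers give software version 3.1.0 at E16.5 and 3.0.2 at P3. The annotation and the counting options are not given in the sources used here.

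From these counts, barcodes were kept from 1000 UMIs up and to a mitochondrial share of 15%, doublets were removed with Scrublet within each library (9.85% to 13.4% marked at E16.5 and 4.11% to 9.50% at P3), and cells were clustered per stage with scanpy 1.11.5 and leidenalg 0.10.2. The first clustering used 2000 variable genes without the members and pathway lists, 30 principal components, 15 neighbours and a resolution of 1. Clusters first named monocyte, dendritic, basophil and mast, stem and progenitor, T and NK or unnamed were pooled and reclustered at a resolution of 1. Endothelial-like and mesenchymal-like cells were each split at 0.8. Both later steps also left out the members and pathway lists, and used fewer variable genes and components. After these steps 99683 cells at E16.5 and 64367 at P3 were kept. Clusters were named from marker lists by a rule settled after their leading genes were seen. These names were rebuilt here and may differ from those of the study. Barcodes found under several labels were counted once.

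UMIs were summed per library and class. Genes with at least 25 summed UMIs were tested with edgeR 4.0.16 (TMM, quasi-likelihood, adjusted p under 0.05 over all pairs of gene and class), for classes with at least 20 cells in each library. The fit was tested on simulated data. Classes were not tested against each other. Restricted and single-value tests were exact permutation tests over libraries on log2(CPM + 1). The p-values measure the spread between these libraries, for which the labels name separate animals. Intervals and floors of 3 counts cover counting error only.

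The 10 members were all named in the text. For the pathway lists, up to 5 called genes per list and contrast were eligible by smallest p, besides receptors and ligands, and Fos, Jun, Egr1 and Atf3 stood for the dissociation list. Likeness was computed among genes with a highest class mean of at least 20 CPM. The members and lists were chosen with earlier results of these data known. DESeq2 1.42.0, other size factors, no filter on low counts, other cell filters, a replicate block, a covariate for Xist status and leaving out libraries were tried as alternatives. Restrictions to single clusters were chosen after seeing the data.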

Additional observations from a re-analysis of the deposited data

Results flagged for a closer look

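Among 20 groups of libraries examined for a value far from the others, 2 had one. Each group was the class with the highest mean for a gene and stage. A high value in 1 library raises that mean, so the groups were not picked apart from the values and no chance rate is given. Heyl in endothelial-like cells at P3 was 14.2 CPM in library C, against 0.596, 2.19 and 0 CPM in libraries A, B and D. Hey2 in endothelial-like cells at P3 was 1.01 CPM in library C, which is 1 UMI, and 0 in the other 3 libraries. The class was a mixture that included 58 cells led by Cxcl12, Dcn, Reln and Lum at P3, and their part in the Heyl and Hey2 values was not tested.

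For 4 genes the stage change had opposite signs in 2 classes. The classes were picked as the most raised and the most lowered calls on the same libraries, so the differences are descriptions and were not tested apart from that choice. On the log2(CPM + 1) scale they were 2.69 for Nrarp (early erythroid-like minus stem and progenitor-like), 1.96 for Rbpj (dendritic-like minus late erythroid-like), 1.76 for Dtx4 (B-like minus early erythroid-like) and 1.79 for Lfng (macrophage-like minus B-like). The Lfng change in B-like cells was 0.35 among cells led by Igll1 and Vpreb1, and the Dtx4 fall in early erythroid-like cells lay under 1 CPM and was lost when single libraries were left out.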

How the results depend on the processing

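The number of pairs of gene and class called between genotypes at E16.5 was 1 and moved to 26 with DESeq2, 5 with a covariate for Xist status, 557 without a filter on low counts, 0 against Jag1+/+ replicate 1 alone and 2 with a replicate block. Leaving out 1 library at a time gave 1 to 93. The value was 93 without Jag1Ndr/Ndr replicate 2, 25 without Jag1Ndr/Ndr replicate 1, 15 without Jag1+/+ replicate 1 and 3 without Jag1Ndr/+ replicate 1. No member was called under any of these. Same-numbered libraries had correlated deviations of 0.28 at E16.5 and -0.01 between stages, and the labels do not say that a number marks a litter or a batch.

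Between stages the count of 59261 stayed within 1.5 times under each alternative, from 44585 without libraries A and B to 62365 with DESeq2, and was 57765 with a replicate block. The 40 member calls became 39 with the block, 31 to 37 without 1 library, and 30 without A and B. Of 643 member values under alternatives, 558 kept their direction and call, 84 (in 23 pairs) kept the direction and missed the threshold, and 1 reversed: Lfng in B-like cells was 0.35, on the log2(CPM + 1) scale used for single clusters, among cells led by Igll1 and Vpreb1. Of the 40 calls, 23 held under each alternative listed for the stage comparison, the restrictions to single clusters aside. These 23 include Hey2 in early and late erythroid-like cells, which could only be called lower, so their holding adds no support. They also include Nrarp in stem and progenitor-like cells, where the P3 side without A and B rested on 1 UMI. The cause of the changes under the alternatives was not tested. Levels in the leading class of each member and stage stayed within 1 SD in 60 of 60 comparisons under 3 cell filters. The levels of the other classes were not compared in this way. Depth limits what the small classes can show. In endothelial-like cells, for example, 3 UMIs are 1.01 to 1.65 CPM at E16.5 and 1.79 to 4.99 CPM at P3.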
